A study of Mus musculus with 6 samples.

Results

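The miR-21a hairpin gives 2 mature miRNAs, mmu-miR-21a-5p from its 5′ arm and mmu-miR-21a-3p from its 3′ arm, called miR-21a-5p and miR-21a-3p here. Both were found by name among the 1011 rows of a table of mature miRNAs counted in mouse pancreatic islets, which hold the endocrine cells of the pancreas. The primary islets came from HFD-fed mice and from NCD-fed mice, with 3 small RNA libraries per diet. HFD and NCD are the diets as the labels name them. The labels state no strain, genotype, sex, age or time on the diet, nor whether a library is 1 animal or a pool, so that the spread between libraries may be technical. The hairpin was selected on its measured values, namely the higher miR-21a-5p counts under HFD in earlier results of these data. The HFD and NCD levels of both arms are therefore given as a description, and nothing is read from the calls of edgeR or DESeq2 printed beside them. The ratio between the arms was tested, but it shares its 5p counts with that selection.

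miR-21 is among the most widely expressed mammalian miRNAs and is known as an inducible one: NF-kB, AP-1 and STAT3 raise transcription of its primary transcript in inflamed, stressed and growing cells. Its 5p arm is the usual guide strand, loaded into Argonaute to repress targets such as Pdcd4, while the 3p arm is the strand that is mostly degraded. In islets, pro-inflammatory cytokines are known to raise miR-21, and repression of Pdcd4 has been tied to beta-cell survival.

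Both arms are printed because the counting was by mature name, and the seeds (bases 2 to 8 from the 5′ end, in capitals) define what each arm can pair with. The RefSeq sequences of miR-21c and miR-21b follow, as the mouse miRNAs whose names mark them as relatives of the 5p arm (mature sequences from RefSeq, GRCm38.p6, 5′ to 3′).
miR-21a-5p: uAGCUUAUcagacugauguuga
miR-21a-3p: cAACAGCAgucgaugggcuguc
miR-21c: uAGCUUAUcagacugguacaa
miR-21b: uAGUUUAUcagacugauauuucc
The arms do not share a seed. miR-21c has the seed of the 5p arm and differs from it by A16G, G18A, U19C, U20A and G21A over 21 bases, counted from 1 at the 5′ end with the base of miR-21a-5p first. miR-21b differs from it by C4U, G18A, G21U and A22C over 22 bases, and C4U lies in the seed. Neither miR-21b nor miR-21c had a row among the counted miRNAs, so they were not analysed here. No other row shared 12 consecutive bases with either arm, so neither count could be split with another listed miRNA over such a run.

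The hairpin lies on chromosome 11 from 86584067 to 86584158 on the minus strand (GRCm38), inside the last annotated exon of Vmp1, exon 12, in its 3′ UTR. Vmp1 encodes a membrane protein of the endoplasmic reticulum needed for autophagy. The 5p arm covers bases 18 to 39 of the 92-base hairpin and the 3p arm bases 56 to 77, with 16 bases between them. In the lowest-energy fold computed by RNAfold (-46.2 kcal/mol), 19 of the 22 bases of the 5p arm paired with bases of the 3p arm. The first 4 bases of each arm were all paired, and 2 of these 4 were A or U in each arm. The 5p arm begins with U and the 3p arm with C, and its GC content was 36.4% against 59.1% for the 3p arm. As background, the arm with the weaker paired 5′ end, or with a 5′ U, is the one Argonaute tends to keep.

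Library totals ran from 9431818 to 11059628 counts in HFD and from 7166712 to 11172255 in NCD islets. Levels below are counts per 1000000 (CPM) on totals scaled by TMM factors, which were 0.840 to 0.995 in 5 libraries and 1.73 in NCD 3, so that NCD 3 stands apart. The islet-enriched miR-375-3p averaged 334685 ± 93368 CPM over the HFD libraries and 340196 ± 152281 CPM over the NCD libraries (mean ± SD, n = 3 each), and had the most reads of any row over the 6 libraries together.

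miR-21a-5p had 34910, 33739 and 52507 CPM in HFD libraries 1, 2 and 3, against 15364, 19446 and 14453 CPM in NCD libraries 1, 2 and 3. The 3 HFD libraries were all higher than the 3 NCD libraries, HFD 3 was the highest, and the lowest HFD level was 1.74 times the highest NCD level. On raw library totals that ratio was 1.13, since the factor of NCD 3 lowers its level. The raw counts were 313481, 267339 and 577531 in HFD and 103583, 189744 and 203333 in NCD islets.

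The mean was 40385 ± 10514 CPM under HFD and 16421 ± 2659 CPM under NCD (SD over 3 libraries each), a 2.46-fold difference. edgeR gave a log2 fold change of 1.30 ± 0.32 (SE), beside a median of 0.02 over the 406 miRNAs that passed the filter on low counts. With library totals as the only scaling it was 0.96 and the median moved to -0.37, so that the distance from the median was 1.28 with TMM factors and 1.33 with totals. Without HFD 3 the log2 fold change was 1.02. Of the 2 arms, 1 passed the filter, and 0 of that 1 were past an adjusted p of 0.05 in edgeR's quasi-likelihood test, where 0.246% of tested miRNAs were (1, miR-146a-5p). DESeq2 and edgeR without a filter each called miR-21a-5p. No overlap with a higher HFD level occurred in 10.3% of tested miRNAs. Some of the 406 have the same or nearly the same levels under different names. Examples are miR-126a-5p with miR-126b-3p and miR-24-3p with miR-3074-5p, so this is a share of rows. The contrast chose the member, so nothing is read from these calls and shares.

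**Figure D1:**
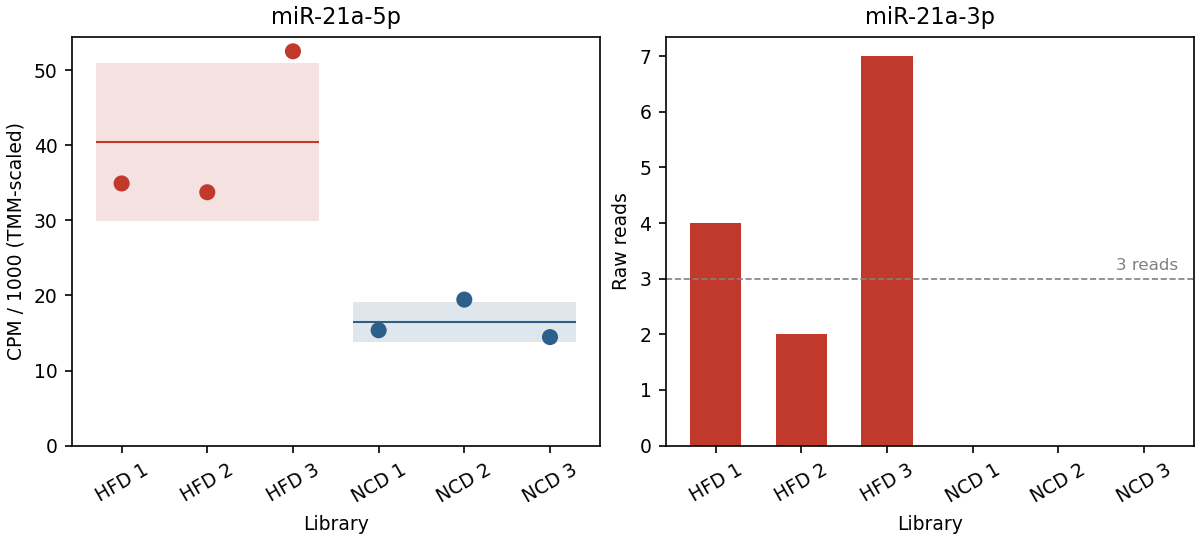
Left, miR-21a-5p in CPM (TMM-scaled, axis in units of 1000) by library, with the mean (line) and SD (band) of each diet; right, raw reads of miR-21a-3p, with a dashed line at 3 reads. The HFD libraries sit at 33739 CPM or more and the NCD libraries at 19446 CPM or less, and the 13 reads of the 3p arm all lie in HFD libraries.

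The 5p arm was a large part of the libraries. Its share of all counts averaged 3.66% ± 1.35 under HFD and 1.88% ± 0.553 under NCD (SD over 3 libraries each). It ranked 5, 4 and 4 in HFD libraries 1, 2 and 3, and 7, 6 and 5 in NCD libraries 1, 2 and 3, counting the most abundant row as 1. Its mean was 23964 CPM higher in HFD islets, a difference in CPM that was exceeded by 2 tested miRNAs, miR-148a-3p and miR-7a-5p (named after their values were seen). The libraries of the diets overlapped in both of those. Of the 10 most abundant miRNAs, 2 had every HFD library above every NCD library, beside 10.3% of all tested miRNAs. They were miR-200a-3p and miR-21a-5p, which was selected on its higher HFD counts. The within-diet SD of log2 CPM was 0.30 for miR-21a-5p and ran from 0.17 to 0.62 over these 10.

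A ratio to another islet miRNA needs no scaling factor, but it carries the spread of that miRNA. The within-diet SD of log2 CPM was 0.62 for miR-375-3p, the highest of the 10 most abundant miRNAs. Its share of the library total ran from 23.2% in HFD 3 to 43.8% in NCD 1. For every 100 reads of miR-375-3p there were 9.88, 8.09 and 22.5 reads of miR-21a-5p in HFD libraries 1, 2 and 3, against 3.30, 5.07 and 8.46 in NCD libraries 1, 2 and 3. The diets overlapped on this scale, since NCD 3 lay above HFD 2. The mean difference of the log2 ratio was 1.22.

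miR-21a-3p was close to the limit of detection. It had 4, 2 and 7 raw reads in HFD libraries 1, 2 and 3, and 0 reads in each NCD library. That is 0.445, 0.252 and 0.636 CPM in HFD, against 0 CPM in NCD libraries 1, 2 and 3, where a count of 0 allows up to 0.445, 0.307 and 0.213 CPM (3 counts of the scaled total). These limits cover counting error alone: without molecular identifiers, reads are not independent molecules. HFD 3, which had the most 5p reads, also had the most 3p reads, and HFD 2, with the fewest 5p reads of that diet, had the fewest. The library totals had the same order, with 11059628, 10678638 and 9431818 counts in HFD 3, HFD 1 and HFD 2. The values of single HFD libraries are of the same size as the limits of the NCD libraries.

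Summed over a diet, the 13 reads of the 3p arm in HFD islets (95% Poisson interval 6.92 to 22.2) gave 0.466 CPM, while the 0 reads in NCD islets allow up to 0.0981 CPM, taken as 3 counts over the diet. With the 13 reads taken as counted, the summed level was at least 4.75-fold higher in HFD islets, at least 3.68-fold with library totals only and at least 2.56-fold without NCD 3. With the HFD reads at their lower limit of 6.92 the bound was 2.53-fold, close to the 2.46-fold difference of the 5p arm. That bound takes TMM-scaled totals and 3 counts for NCD. It falls further with the upper 95% Poisson limit of 3.69 reads for NCD, with library totals only or without NCD 3. It therefore does not show that the 3p arm differed at least as much as the 5p arm. The 3p arm failed the filter on low counts and so has no value in the fit over 406 miRNAs. In the whole table, 3 rows had reads in every HFD library and in no NCD library: miR-21a-3p, miR-6972-3p with 9, 7 and 3 reads and miR-3473h-5p with 1, 1 and 4. The reverse pattern was seen in 1 row, miR-7655-3p, with 5, 3 and 3 reads in the NCD libraries (these 3 other rows are named after their values were seen). Of the 86 rows with 10 to 16 reads in all, 2 had all of them in HFD and 14 had all of them in NCD libraries.

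Whether the arms move together was asked through the arm balance, which is formed within a library. The 3p arm made up 12.8 ppm (reads per 1000000 reads of both arms) in HFD 1 (95% Clopper-Pearson interval 3.48 to 32.7), 7.48 ppm in HFD 2 (0.906 to 27.02) and 12.1 ppm in HFD 3 (4.87 to 24.97). The NCD libraries had 0 ppm, which allows up to 29.0, 15.8 and 14.8 ppm in NCD 1, 2 and 3 (3 counts), or up to 35.6, 19.4 and 18.1 ppm by the Clopper-Pearson interval. Every HFD value lay under both limits of NCD 1, NCD 2 and NCD 3, so no difference in arm balance was detectable at this depth between single libraries. Over the diets the share was 11.2 ppm in HFD (5.98 to 19.2) and 0 ppm in NCD islets (up to 6.04 ppm as 3 counts, or 7.43 ppm by the Clopper-Pearson interval, which overlaps that of HFD). At the HFD share, the 496660 reads of the 5p arm in NCD islets would come with 5.57 reads of the 3p arm, or 1.16, 2.13 and 2.28 in NCD libraries 1, 2 and 3. The 95% Poisson interval for 0 reads over the diet ends at 3.69 reads, under 5.57. That limit leaves out the spread between libraries and the interval of the HFD share. Neither it nor the overlap of the intervals decides whether the shares differ.

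The log2 ratio of 5p to 3p reads, with 0.5 added to each arm, averaged 16.3 ± 0.323 under HFD and 18.3 ± 0.535 under NCD (SD over 3 libraries each). For the difference of -1.93 the exact permutation test, two-sided, gave p = 0.1, the smallest that 3 against 3 libraries allow. It depends on the 0.5, because every NCD count of the 3p arm is 0, and with 5 added to each arm it turned to 0.33 (exact permutation p = 0.5). With limma across the 274 hairpins with both arms listed and no filter, the adjusted p was 0.793. limma draws the variance of each hairpin toward that of all 274, which include hairpins with very few reads. The value therefore does not show that the arm balance was the same. Among the 96 hairpins with both arms past the filter, to which miR-21a does not belong, 0% were called for a diet difference in arm balance by limma, and 8 had an unadjusted p under 0.05. That both arms had their higher reads in HFD islets is thus a description of 13 reads. Whether they changed by the same factor could not be told.

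The arm balance itself was far from even. Over all 6 libraries the hairpin had 1655011 reads of the 5p arm and 13 of the 3p arm, or 7.85 ppm for the minor arm. Of the 132 hairpins with a row for each arm and at least 1000 reads over both, miR-21a had the lowest minor-arm share, against a median of 1.72%. A further 49 rows with at least 1000 reads, miR-375-3p among them, had no row for the other arm under the same hairpin name and could not be ranked. The next were miR-146a, with 14.2 ppm from 2 reads, let-7g with 21.3 ppm and miR-7b with 28.4 ppm (chosen after their values were seen). Among the 19 of these hairpins with at least 100000 reads the minor arm reached 9.35% at most. The major arm was the 5p arm in 69 of the 132 hairpins and began with U in 66, as it does in miR-21a. Hairpins were counted by name, and some share reads, such as miR-122-5p and miR-122b-3p with 8120 reads each. The 132 are thus not all distinct. Arm shares in ligation-based libraries also depend on how well each end is ligated, which was not tested here.

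**Figure D2:**
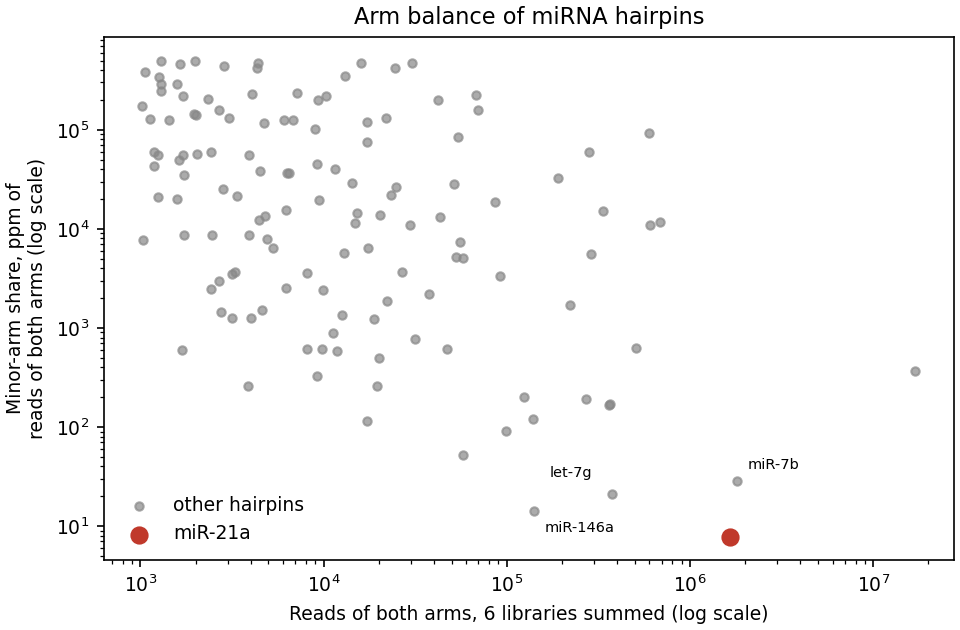
Each point is 1 of the 132 hairpins with a row for each arm and at least 1000 reads, by the reads of both arms summed over 6 libraries and by its minor-arm share in ppm of the reads of both arms (both axes logarithmic). miR-21a, in red, is the lowest of these points at 7.85 ppm; hairpins with a row for 1 arm are not drawn.

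Likeness to miR-21a-5p was measured as the SD over the 6 libraries of the log2 ratio of a miRNA to it, a scale on which library size cancels and a small SD means a constant ratio. Over the 238 other miRNAs tested with a mean of at least 10 CPM the median SD was 0.79. The lowest were miR-212-5p (0.24), miR-325-5p (0.32), miR-409-5p (0.33), miR-200a-3p (0.37) and miR-132-5p (0.38). Their sequences show no seed in common with either arm of miR-21a (seed in capitals, from the deposited table).
miR-212-5p: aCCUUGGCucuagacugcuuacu
miR-325-5p: cCUAGUAGgugcucaguaagugu
miR-409-5p: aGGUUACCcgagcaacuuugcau
miR-200a-3p: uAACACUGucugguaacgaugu
miR-132-5p: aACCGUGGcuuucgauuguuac
They come from chromosomes 11, X, 12, 4 and 11. The measure spans both diets, so it holds the contrast by which miR-21a was chosen, and all 5 had every HFD library above every NCD library. Within diets the likeness was weaker in rank. The pooled SD of the ratio within diets was 0.25 for miR-212-5p (rank 27 of 238), 0.19 for miR-325-5p (rank 10), 0.22 for miR-409-5p (rank 19), 0.26 for miR-200a-3p (rank 30) and 0.39 for miR-132-5p (rank 80). miR-212-5p stayed among the 5 lowest with each library left out in turn, and its SD then ran from 0.19 to 0.26. miR-325-5p and miR-409-5p stayed among the 5 lowest in 5 of 6 such cases, miR-132-5p in 3 and miR-200a-3p in 2.

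**Figure D3:**
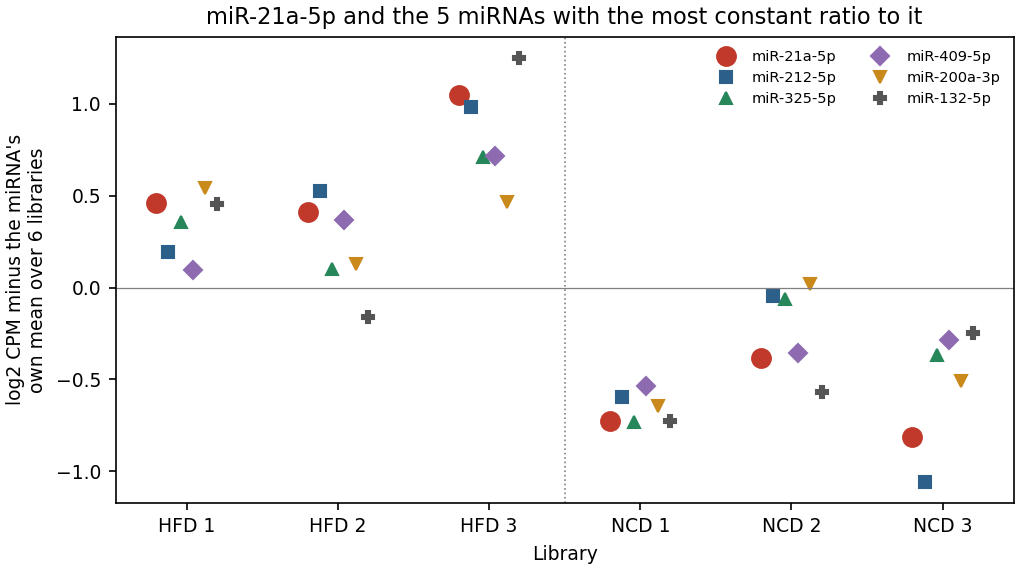
log2 CPM of miR-21a-5p and the 5 miRNAs with the most constant ratio to it, by library, each minus its own mean over 6 libraries. HFD 3 is the highest library for each of them except miR-200a-3p, which is highest in HFD 1, and the HFD points of each miRNA lie above its NCD points.

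miR-212-5p and miR-132-5p come from 1 CREB-responsive cluster. In the 3p arms of these hairpins the diets overlapped (named after their values were seen). Their log2 fold changes were 0.85 ± 0.58 for miR-212-3p and 0.51 ± 0.52 for miR-132-3p (SE). miR-212-5p averaged 74.5 ± 20.7 CPM under HFD and 34.5 ± 12.1 CPM under NCD, and miR-132-5p averaged 104 ± 50.9 CPM under HFD and 47.6 ± 8.22 CPM under NCD (SD over 3 libraries each). Both counts lay far below that of miR-21a-5p, though ligation bias limits how well the levels of different miRNAs compare. miR-200a-3p, of the epithelial miR-200 family, averaged 11660 ± 1709 CPM under HFD and 6997 ± 1788 CPM under NCD.

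Other miRNAs that inflammation, hypoxia or stress are known to induce were set beside the 5p arm as a list of 28 mature miRNAs, of which 27 had a row and 18 passed the filter. In edgeR's test 1 of the 18 rose under HFD and 0 fell, against 0.246% called over all miRNAs. The list had 12 of 18 positive log2 fold changes, beside 51.5% of all tested miRNAs, and a median of 0.19, beside 0.02. Every HFD library lay above every NCD library in 3 of the 18, beside 10.3% of all. The 1 call was miR-146a-5p, the NF-kB-induced brake on inflammatory signalling. Its log2 fold change was 2.40 ± 0.35 (SE), and its levels were 4048 ± 1262 CPM under HFD and 767 ± 188 CPM under NCD (SD over 3 libraries each). The call was lost with library totals only, with limma-trend on the TPM values and without NCD 1.

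The remaining members with the highest levels were miR-9-5p, miR-146b-5p and miR-34c-5p. miR-9-5p, which targets NF-kB subunits, averaged 370 ± 263 CPM under HFD and 346 ± 60.7 CPM under NCD. miR-146b-5p, the paralogue of miR-146a-5p, averaged 416 ± 97.2 CPM under HFD and 261 ± 87.9 CPM under NCD. miR-34c-5p, of the p53-induced miR-34 family, averaged 168 ± 41.04 CPM under HFD and 125 ± 21.5 CPM under NCD. None of these 3 passed, and their diets overlapped. miR-155-5p, the NF-kB-induced miRNA of activated leukocytes, was at 2.92 ± 2.19 CPM under HFD and 3.93 ± 1.74 CPM under NCD (named after its values were seen). It had a log2 fold change of -0.54 ± 0.59 (SE). The list was written with earlier results of these data known, so its counts are no independent evidence.

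**Figure D4:**
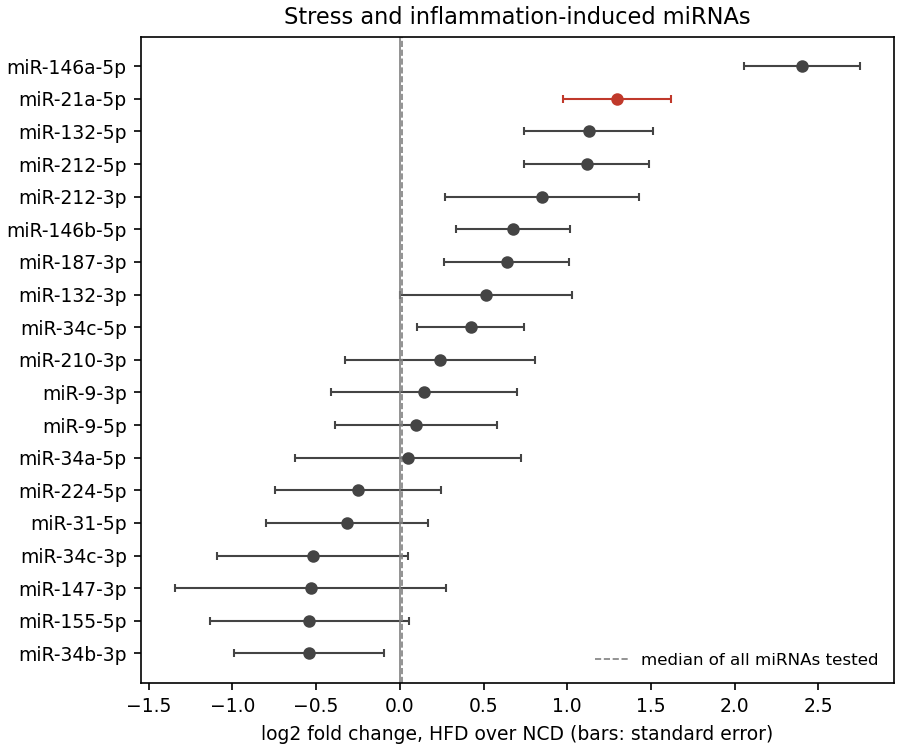
log2 fold change, HFD over NCD, of miR-21a-5p (red) and the 18 tested members of the stress and inflammation-induced list, with standard errors; the dashed line is the median of all tested miRNAs. miR-146a-5p at 2.40 and miR-21a-5p at 1.30 lie farthest to the right.

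miR-21 is expressed in many cell types, and in bulk islets a change in the number of such cells and a change in the level per cell cannot be told apart. Marker miRNAs of other cells were compared for that reason. The 6 leukocyte-enriched miRNAs, led by miR-342-3p and miR-142a-5p, summed to 21.5 to 29.7 CPM over the HFD and 27.5 to 84.9 CPM over the NCD libraries. The 5 acinar miRNAs, led by miR-217-5p, summed to 20.2 to 206 CPM over the HFD and 112 to 418 CPM over the NCD libraries. NCD 3, with the lowest TMM-scaled level of miR-21a-5p, had the highest acinar sum. On raw library totals, however, NCD 3 had the highest share of miR-21a-5p among the NCD libraries. Among the HFD libraries, HFD 3 had both the highest level of miR-21a-5p and the highest acinar sum, at 206 CPM. A link between the acinar sum and miR-21a-5p was not tested.

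The 4 endothelial miRNAs, led by miR-126a-3p, summed to 305 to 451 CPM over the HFD and 359 to 771 CPM over the NCD libraries, with the reads of miR-126a-5p counted again under miR-126b-3p. The 6 miRNAs of fibroblasts and smooth muscle, led by miR-143-3p, summed to 1329 to 4975 CPM over the HFD and 1515 to 2978 CPM over the NCD libraries. HFD 3, where miR-21a-5p was highest, had the lowest of these sums. The erythroid miRNAs, led by miR-451a, summed to 47.8 to 155 CPM over the HFD and 39.8 to 143 CPM over the NCD libraries.

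The liver miRNA miR-122-5p had 34.1 to 68.3 CPM over the HFD and 61.3 to 757 CPM over the NCD libraries, the highest in NCD 1, and the 3 muscle miRNAs, led by miR-1a-3p, summed to 14.2 to 62.1 CPM over the HFD and 52.8 to 128 CPM over the NCD libraries. The 9 islet endocrine miRNAs, led by miR-375-3p and miR-7a-5p, summed to 451528 to 552389 CPM over the HFD and 265277 to 607531 CPM over the NCD libraries, lowest in NCD 3. No member of these lists was at 0 in all 6 libraries. In edgeR's test between diets, 0 of the 20 tested markers of other cells and 0 of the 9 endocrine ones passed. Over all tested miRNAs 0.246% passed, so nothing is read from these counts. Of the 20 tested markers of cells other than endocrine ones, 1 (miR-143-3p) had a positive log2 fold change, beside 51.5% of all tested miRNAs, and their median was -0.73, beside 0.02. miR-143-3p was the most abundant of the 20, at 2965 ± 1835 CPM under HFD and 2095 ± 761 CPM under NCD (SD over 3 libraries each). Its log2 fold change was 0.50 ± 0.44 (SE). The 20 count the reads of miR-126a-5p again as miR-126b-3p. With library totals only, 1 of the 20 had the higher mean share in HFD islets. On that scale the median log2 fold change of all tested miRNAs was itself lower, at -0.37. Of the 9 endocrine markers 5 had a positive log2 fold change. In each list the summed levels of the diets overlapped. The part of other cells in the level of miR-21a-5p was not tested.

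**Figure D5:**
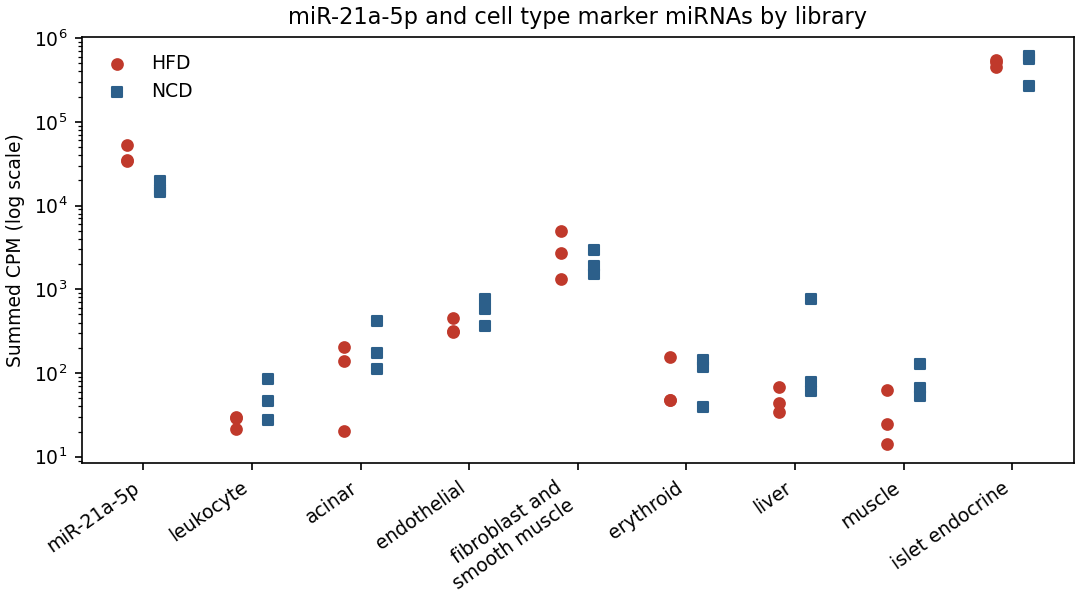
CPM of miR-21a-5p and summed CPM of each list of cell type markers by library (logarithmic axis), HFD as red circles left of NCD as blue squares. The summed levels of the diets overlap in every marker list; miR-21a-5p, drawn for its level, was selected on its higher HFD counts.

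Within 2000000 bases of the hairpin on chromosome 11 lay 6 other annotated hairpins, of which 5 had rows in the table. None was near the level of miR-21a-5p. miR-12182-3p, 268 kb away, averaged 6.31 ± 2.68 CPM under HFD and 3.53 ± 1.57 CPM under NCD. miR-301a-5p, 529 kb away, averaged 1.35 ± 0.998 CPM under HFD and 0.688 ± 0.451 CPM under NCD. The leukocyte miRNA miR-142a-5p, 1173 kb away, averaged 3.64 ± 1.83 CPM under HFD and 6.99 ± 6.78 CPM under NCD (SD over 3 libraries each). Their log2 fold changes were 0.87 ± 0.54, 1.10 ± 0.76 and -0.82 ± 0.73 (SE). The diets overlapped in all 3, and none passed edgeR's test, beside 0.246% of all tested miRNAs. miR-301a-3p, miR-142a-3p, miR-142b (with the same counts as miR-142a-3p) and miR-378b did not pass the filter on low counts, with 9, 73, 73 and 20 reads in all.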

How the data were processed

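Small RNA was extracted with the RNeasy mini kit under its total RNA protocol, and libraries were made with an NEBNext small RNA kit, per the labels' protocols. Such columns are known to keep short RNA incompletely. The sources used here name no aligner, counting tool or genome build. For each mature miRNA and library the authors deposited a raw count and a TPM value, per the file headers. These TPM are reads per 1000000 of the library total, without a length term.

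Counts were analysed with edgeR 4.0.16 in R 4.3.3: filterByExpr (minimum count 10), TMM, and the quasi-likelihood test (glmQLFit with legacy = FALSE) with diet as the only term. Adjustment was by Benjamini-Hochberg over 406 miRNAs, at a threshold of 0.05. Removed rows (605) took no more than 0.0351% of any library. Arm ratios used limma 3.58.1 and exact permutation (scipy 1.17.1), and the hairpin was folded with RNAfold 2.7.2. Alternatives included DESeq2 1.42.0. Simulated counts were run through edgeR's test and limma's arm-ratio test over filtered hairpins only. The exact permutation test and limma without a filter, which gave the miR-21a arm results, were not simulated. Replicates of a diet differed well beyond sampling noise (chi-square per degree of freedom, 378 to 1894). The named miRNAs follow a written rule: both arms, seed relatives, the 5 most constant ratios, neighbours within 2000000 bases and up to 4 abundant members per list. The members, lists and tests were chosen with earlier results of these data known.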

Additional observations from a re-analysis of the deposited data

How the results depend on the processing

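For miR-21a-5p all 19 alternatives gave a positive log2 fold change, between 0.94 and 1.42. The arm was selected on its higher HFD counts in these same libraries, so the shared sign is no support. It was 0.96 with library totals only and 0.94 with limma-trend and either pseudocount (1 or 0.1 TPM), where NCD 3 is not scaled down, and 1.02 to 1.42 with 1 library left out. Its distance from the median of all miRNAs ran from 1.07 to 1.45. The number of called miRNAs, 1 at first, was 0 with library totals only and with limma-trend at either pseudocount, 8 without a filter and 3 with DESeq2. It ran from 0 (without NCD 1) to 4 (without NCD 2), and was 3 without NCD 3. Of 18 alternatives, 2 called miR-21a-5p. For these shifts the cause was not tested. The log2 lower bound for miR-21a-3p ran from 1.36 to 2.49 with 1 library left out. The edgeR fit without a filter gave miR-21a-3p a log2 fold change of 5.18, which depends on the prior count and is no bound. Alternatives that keep the filter give it no value. The arm ratio difference ran from -2.24 to -1.75 with 1 library left out, was -4.10 with 0.1 added per arm, and reversed to 0.33 with 5 added, which outweighs the 3p counts. The number of hairpins called for arm balance was 0 under each alternative run, including leaving out each library.

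Libraries with the same replicate number deviated with correlations of 0.18, -0.24 and 0.37 across miRNAs, so replicate numbers were not treated as pairing the libraries. With a replicate block, the log2 fold change of miR-21a-5p was 1.28, 1 miRNA and 0 hairpins were called, and the unfiltered arm ratio difference was -1.93 (limma adjusted p = 0.788). The legacy setting of edgeR, the blocked arm ratio and the likeness values with libraries left out were added after the data were seen. Depth limits the 3p arm most, with 13 reads in all.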

Other observations

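The minor arms of the other most one-sided hairpins were spread differently over the diets. miR-146a-3p had 2 reads, both in HFD 1, beside 116895 reads of miR-146a-5p in HFD and 24042 in NCD libraries. let-7g-3p had 1 read in HFD and 7 in NCD libraries, 5 of them in NCD 3, while let-7g-5p had 208965 and 166803. miR-7b-3p had 20 reads in HFD and 31 in NCD libraries, 22 of them in NCD 3. These differences were not tested, and counts this low say little about a single library.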
